A study of Mus musculus with 26 samples.

Results

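The genes described here are the variable segments of the α and β chains of the T cell receptor, named Trav and Trbv in the mouse. They were chosen by symbol, and segments with a total count under 10 over the 8 CD4 T cell libraries were left out. Of 163 such symbols among 55416 genes, 104 remained as members, 79 of 128 Trav and 25 of 35 Trbv. The summed count of the CD4 T cell libraries therefore chose the members, and their presence in those libraries is a description and not a result. The libraries hold polyadenylated RNA of C57BL/6 mice that carry lung metastases that grew after injection into a vein of B16F10 cells, an established melanoma line of the mouse. Mice were treated with propranolol, which blocks β-adrenergic receptors, or left untreated (control); the labels give no dose, duration, age or sex. CD4 T cells isolated from lung with magnetic beads gave 4 libraries with propranolol and 4 controls, whole lung gave 5 and 5, and monocytes sorted from lung gave 4 and 4. Whether each library stands for its own animal is not stated in the labels. The p-values therefore reflect only how far these libraries differ, which may be technical.

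A T cell builds each receptor chain by joining 1 variable segment to a joining segment (for β also a diversity segment), and the RNA is then spliced to a constant gene, Trac for α and Trbc1 or Trbc2 for β. Each T cell clone thus carries its own pair of segments, and the share that each segment takes of a library's receptor RNA describes the repertoire of the cells in it. In the thymus, where T cells form, the β chain is joined before the α chain, with the recombinase genes Rag1 and Rag2 and the terminal transferase Dntt switched on. Invariant natural killer T cells of the mouse carry Trav11 joined to Traj18, mostly with Trbv13, Trbv29 or Trbv1, and mucosal-associated invariant T (MAIT) cells carry Trav1 joined to Traj33, mostly with Trbv13 or Trbv19. A count per gene gives the use of single segments only, not which α belongs to which β, nor the joined sequence.

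As a check of the CD4 T cell label, Cd4 itself had 458 ± 55.5 CPM (counts scaled to a common library total) with propranolol and 644 ± 4.90 CPM in control, and Cd8a, which marks the other main class, had 12.2 ± 2.60 and 4.56 ± 0.904 CPM (SD, n = 4 each). Total counts ran from 27742422 to 42484125 with propranolol and from 17625672 to 35600275 in control. Trav members took 4687 to 6540 counts with propranolol and 2128 to 4469 in control, and Trbv members took 7134 to 9796 and 5579 to 11037. Markers of other cells were present and differed. The 5 monocyte and macrophage markers summed to 743 to 843 CPM with propranolol and 303 to 390 CPM in control, with Cd14 at 66.8 ± 5.14 and 1.38 ± 0.585 CPM. Of these 5, 4 were higher and 1 was lower in every propranolol library than in any control. The 5 B cell markers summed to 341 to 455 CPM with propranolol and 135 to 177 CPM in control, while the 4 plasma cell markers summed to 4642 to 8741 CPM with propranolol and 9011 to 9304 CPM in control. The 3 neutrophil markers summed to 374 to 632 CPM with propranolol and 97.9 to 138 CPM in control. For the 4 regulatory T cell markers the sums were 755 to 1075 and 506 to 533 CPM, with 2 of the 4 above every control. Sums of the NK cell and γδ T cell markers overlapped. Sftpc of alveolar epithelium, Scgb1a1 of club cells, and Tyrp1 and Dct of melanocytes had no count in any of the 8 libraries. A count of 0 allows up to 3 counts in each library. Other melanocyte markers were counted. The 4 melanocyte markers summed to at most 5.06 CPM with propranolol and at least 10.3 CPM in control. Of these 4, 1 was lower in every propranolol library than in any control. The 2 alveolar epithelial markers summed to at most 0.0595 CPM with propranolol and 0.124 CPM in control, with overlap. The part of other cells, or of regulatory T cells, in the results on receptor segments was not tested.

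Which segments were counted went with how much of their sequence is their own. Much of the mouse Trav locus on chromosome 14 exists in further copies, marked d and n in the symbols, whereas the Trbv segments lie on chromosome 6. A 50-base stretch counts as unique here if no transcript of another gene holds it on either strand. By the GENCODE M21 annotation, 87 of the 89 segment genes with at least 10% unique stretches were members. Of the 41 segment genes below that share, 7 were members. Of the 33 annotated pseudogenes, 10 were members. Members included 48 of 55 Trav without a copy letter, 16 of 39 d copies and 15 of 34 n copies, and all 22 Trbv segment genes. The median of unique stretches was 55.8% in Trav members and 0% in the Trav left out. This did not hold for Trbv, where it was 100% both in members and in the 10 left out, all of which are pseudogenes. Counts of copied segments are therefore uncertain, since reads that match several copies may have been dropped or split.

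**Figure D1:**
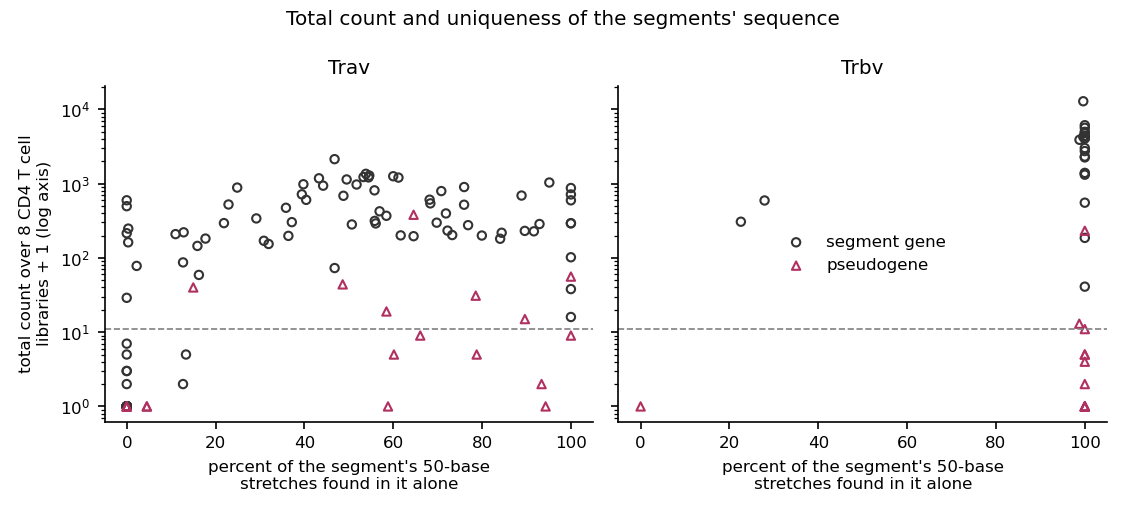
Each point is 1 of the 163 segments. The x axis gives the percent of its 50-base stretches found in the transcripts of no other gene. The y axis gives its total count over the 8 CD4 T cell libraries, plus 1, on a log scale. The dashed line marks a total of 10. Segment genes with few stretches of their own lie mostly below the line, and 10 of 33 pseudogenes lie on or above it.

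Trav11, the segment of invariant natural killer T cells, is a case in point. It had a total of 6 counts and its copy Trav11d had 2, so neither became a member, while the pseudogene Trav11n had 30. Over 342 bases Trav11 and Trav11d are identical, and Trav11n differs from Trav11 at 8 positions (97.7% identity). Bases 91 to 240 of the 3 transcripts are shown to let this be seen, with the 5 positions at which they differ in capitals (GENCODE M21, 5′ to 3′ along the transcript).
Trav11: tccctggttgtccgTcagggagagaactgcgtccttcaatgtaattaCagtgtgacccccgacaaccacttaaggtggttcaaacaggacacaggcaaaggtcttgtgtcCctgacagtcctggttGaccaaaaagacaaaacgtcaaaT
Trav11d: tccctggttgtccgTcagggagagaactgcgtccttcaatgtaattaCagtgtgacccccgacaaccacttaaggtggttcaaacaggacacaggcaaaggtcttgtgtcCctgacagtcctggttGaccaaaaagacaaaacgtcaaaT
Trav11n: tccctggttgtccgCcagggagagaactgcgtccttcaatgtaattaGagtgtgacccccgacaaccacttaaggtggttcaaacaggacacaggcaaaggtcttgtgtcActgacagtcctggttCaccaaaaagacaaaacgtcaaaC

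Of 42 Trav segments with no unique 50-base stretch, 4 were members, among them Trav6-6, Trav4n-4 and Trav12d-2 with totals of 596, 496 and 214. Trav11 and Trav11d have no unique stretch either, so their low counts cannot be taken as a measure of the use of Trav11. Its partner Traj18 stood at 1.72, 1.51, 1.84 and 1.24 CPM with propranolol and at 2.67, 2.63, 2.56 and 2.25 CPM in control. On library totals the groups did not overlap, but after TMM scaling, which sets libraries level on the bulk of their genes, the log2 change of −0.29 ± 0.23 (SE, propranolol over control) did not pass in edgeR's test (adjusted p = 0.309). Zbtb16, the third marker listed for these cells, went the other way and lay above control without overlap. The 3 markers summed to 31.3 to 48.3 CPM with propranolol and 16.7 to 19.3 CPM in control. The number of such cells was not tested. Trav1, the segment of MAIT cells, is unique in all of its stretches. It took 0.642%, 0.640%, 0.582% and 0.650% of all Trav counts with propranolol and 1.32%, 0.989%, 0.850% and 1.07% in control. Every share with propranolol lay below every control share. The log2 change of the share, −0.73 ± 0.30 (SE), had an adjusted p of 0.05005, which missed the threshold of 0.05. Traj33, its partner, stood at 0.547 ± 0.260 CPM with propranolol and 0.930 ± 0.273 CPM in control (SD, n = 4 each), with a log2 change of −0.36 ± 0.44 (adjusted p = 0.5, edgeR).

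At the edge of the rule, the pseudogenes Trbv22 and Trbv12-3 had totals of 10 and 12 and were members. The pseudogenes Trav22 and Trav4d-2 had totals of 8 each and were not.

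The balance of the chains differed between the CD4 T cell groups. With propranolol there were 0.668, 0.657, 0.664 and 0.591 Trav counts per Trbv count in the 4 libraries, against 0.381, 0.403, 0.405 and 0.415 in control. The groups did not overlap, and the ratio of their means was 1.61. This measure compares counts within a library and does not depend on how libraries are scaled. The constant genes moved the same way. There were 1.78 to 1.88 Trac counts per count of Trbc1 and Trbc2 together with propranolol and 0.936 to 0.964 in control.

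In plain CPM, which divides by the library total, the Trav members summed to 154, 169, 169 and 159 with propranolol and to 121, 130, 126 and 127 in control. The Trbv members summed to 231, 257, 254 and 269 CPM with propranolol and to 317, 322, 310 and 307 CPM in control. Thus the Trav sum was higher and the Trbv sum lower with propranolol, with no overlap in either, at ratios of the means of 1.29 and 0.805. The direction of the Trbv sum depended on the scaling. TMM gave the propranolol libraries factors of 0.868 to 0.880 and the controls 1.141 to 1.145. On that scale Trav summed to 186 with propranolol and 110 in control as means, while Trbv averaged 289 with propranolol and 275 in control, with overlapping libraries (ratio 1.05). From the level of a chain alone, bulk samples cannot tell fewer T cells from less receptor RNA per cell. Here the Trav and Trbv sums moved in opposite directions in plain CPM, and Trav counts per Trbv count were higher with propranolol. The cause of this difference between the chains was not tested.

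**Figure D2:**
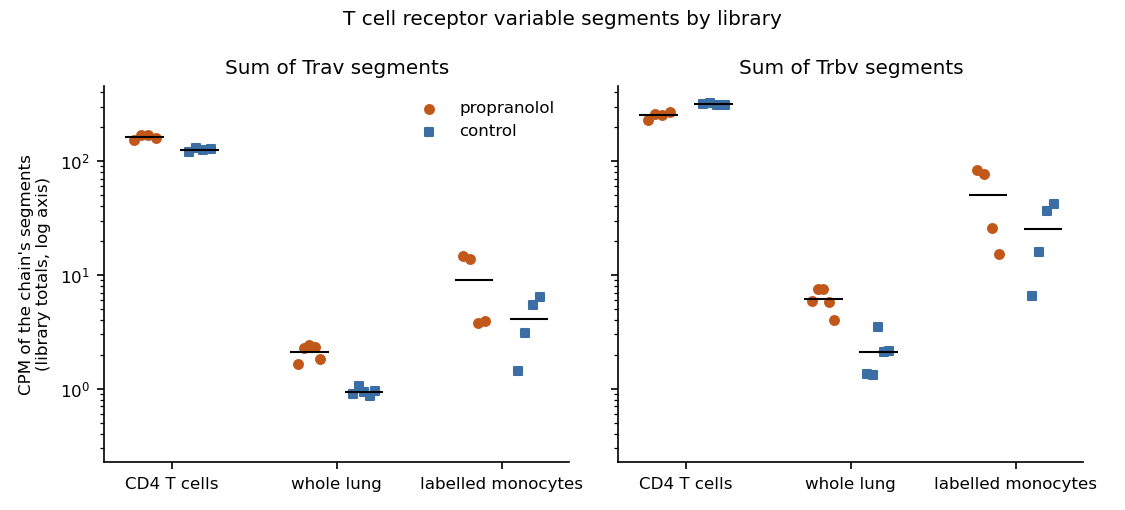
Points are libraries, with the summed CPM (library totals) of the Trav members on the left and of the Trbv members on the right, on a log axis; bars are group means. In CD4 T cells the propranolol libraries lie above control for Trav (163 against 126 on average) and below control for Trbv (253 against 314). In whole lung they lie above control for both, and in the libraries labelled monocytes the groups overlap.

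Gene by gene, 30.1% of the 16550 genes tested in CD4 T cells were higher and 29.9% lower with propranolol at an adjusted p under 0.05 in edgeR's quasi-likelihood test after TMM scaling. Of the 104 members, 90 passed the filter on low counts, 68 Trav and 22 Trbv. A member scarce in 1 group could pass through the other group alone, as Trav10n did, and its direction is then no independent result. Among the Trav, 31 were higher and 0 lower with propranolol, 64 of the 68 had a positive log2 change, and the median was 0.67 against −0.04 over all genes tested. Among the Trbv, 5 were higher (Trbv29, Trbv19, Trbv20, Trbv15 and Trbv13-2) and 3 lower (Trbv2, Trbv16 and Trbv1), with a median of 0.15. The 3 lower calls fell to 1 without control library 2, control library 4 or propranolol library 3 (and to 2 without control library 3). With library totals in place of TMM, a setting chosen after seeing the data, the median of all genes shifted to −0.42. Then 13 Trav were higher and 0 lower, all 13 among the 31, and 0 Trbv were higher and 8 lower, the 3 among them. Set against the median of all genes, the Trav median stood 0.70 higher under TMM and 0.71 higher with library totals, and the Trbv median 0.19 higher under both.

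The most abundant Trav was Trav4-4-dv10 (ENSMUSG00000096096), a segment annotated for use in both α and δ chains. It stood at 9.91, 12.6, 13.1 and 10.3 scaled CPM (TMM) with propranolol, against 5.05, 5.18, 5.91 and 6.41 in control. All propranolol libraries lay above all controls, and the log2 change was 1.02 ± 0.14 (SE, adjusted p = 8.7e-05), or 0.63 ± 0.14 with library totals (adjusted p = 0.0023). Trav16 (ENSMUSG00000076855) stood at 6.93, 5.57, 4.29 and 6.83 scaled CPM with propranolol, against 1.93, 2.46, 1.33 and 1.73 in control. Its log2 change of 1.67 ± 0.24 (SE, adjusted p = 9.96e-05) stood at 1.28 with library totals (adjusted p = 0.000673). Trav14-3 stood at 5.21 to 7.12 scaled CPM with propranolol and 2.74 to 3.55 in control, a log2 change of 1.10 ± 0.17 (SE, adjusted p = 0.000189).

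Among the 6 Trav with the highest mean CPM, the other 5 had smaller log2 changes than Trav4-4-dv10. Trav14n-3 changed by 0.99 ± 0.17 log2 (SE, adjusted p = 0.000386), Trav14-2 by 0.65 ± 0.22 (adjusted p = 0.0237) and Trav13-1 by 0.59 ± 0.17 (adjusted p = 0.0112). The last 2 did not pass with library totals (adjusted p = 0.315 and 0.309). For Trav14-2 the groups overlapped in plain CPM, and the call was also lost without control library 3 or 4 or propranolol library 1 or 3. Trav3-3 (0.37 ± 0.25 log2, adjusted p = 0.213) and Trav9-2 (0.35 ± 0.19 log2, adjusted p = 0.137) did not pass. Per base of transcript, Trav4-4-dv10 took the largest share of the Trav counts (6.02%), followed by Trav13-1 (4.10%) and Trav14n-3 (3.81%), as means over the 8 libraries.

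Shares within a chain show which segments moved against the others. In this fit each segment was tested relative to the total of its chain, and all other genes as levels after TMM scaling. With adjustment over the same 16550 genes, 59.8% of all genes passed, 29.9% higher and 29.9% lower, nearly all of them as levels. Of the 90 members tested, 7 were higher and 5 lower with propranolol. The higher ones were Trbv29, Trav16, Trbv19, Trav16d-dv11, Trbv20, Trav6-5 and Trav10n, and the lower ones Trbv2, Trbv16, Trbv1, Trav9n-4 and Trav7d-2. Trav16d-dv11, Trbv20, Trav6-5, Trav10n, Trav9n-4 and Trav7d-2, and Trbv15 above, were named after their values were seen. Most members thus did not pass, and the medians over the tested segments were −0.07 for Trav and 0.07 for Trbv. The 7 higher calls fell to 4 without control library 1, control library 4 or propranolol library 3, and the 5 lower ones to 3 without control library 3 or propranolol library 3. Trbv29, Trav16, Trbv19, Trbv2, Trbv16 and Trbv1 passed under all 12 alternatives run on this fit.

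Those 6 segments show how the change looks in single libraries. Trbv29 (ENSMUSG00000076480) took 4.58%, 5.59%, 5.28% and 4.97% of all Trbv counts with propranolol, against 3.78%, 3.61%, 3.45% and 2.98% in control, a log2 change of 0.56 ± 0.12 (SE, adjusted p = 0.00132). Trbv19 took 8.67%, 6.36%, 7.35% and 7.76% with propranolol, against 5.81%, 5.56%, 6.05% and 6.03% in control (0.36 ± 0.11 log2, adjusted p = 0.0113). In both, every propranolol library lay above every control. Trbv2 took 6.22%, 6.04%, 5.90% and 5.42% with propranolol, against 8.17%, 8.01%, 8.15% and 7.76% in control. Its log2 change was −0.44 ± 0.08 (SE, adjusted p = 0.000816), and the shares varied little within each group. Trbv16 belongs to the segments whose T cells are deleted in mouse strains with the class II molecule I-E and certain endogenous retroviruses; C57BL/6 mice lack I-E. It took 4.57%, 5.68%, 4.38% and 4.58% with propranolol, against 5.93%, 6.44%, 6.32% and 7.34% in control (−0.44 ± 0.11 log2, adjusted p = 0.00582). Trbv1 was the most variable of them, at 3.43%, 6.29%, 4.18% and 5.39% with propranolol, against 6.70%, 7.22%, 7.82% and 7.94% in control (−0.63 ± 0.17 log2, adjusted p = 0.00684). Its highest propranolol library came close to the lowest control without reaching it.

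The 3′ ends of the 5 Trbv just described and of Trbv20 are shown because this is the end that is joined to a diversity segment (last 60 bases of the GENCODE M21 transcripts, 5′ to 3′). The last 12 bases, at the end that is joined, are in capitals.
Trbv29: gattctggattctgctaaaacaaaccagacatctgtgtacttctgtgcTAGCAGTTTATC
Trbv19: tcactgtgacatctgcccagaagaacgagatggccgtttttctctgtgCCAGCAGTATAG
Trbv20: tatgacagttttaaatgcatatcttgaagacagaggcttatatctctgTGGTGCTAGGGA
Trbv2: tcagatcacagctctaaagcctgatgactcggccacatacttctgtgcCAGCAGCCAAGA
Trbv16: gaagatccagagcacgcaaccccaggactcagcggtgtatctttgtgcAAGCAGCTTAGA
Trbv1: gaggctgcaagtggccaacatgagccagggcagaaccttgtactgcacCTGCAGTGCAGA

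The most used β segment was Trbv13-2, also per base of transcript, where it took 20.8% of the Trbv counts as a mean over the 8 libraries, ahead of Trbv13-1 (8.46%) and Trbv3 (7.36%). Its plain share was 20.3%, 17.5%, 18.9% and 18.5% with propranolol, against 18.8%, 16.9%, 17.2% and 16.4% in control. The groups overlapped, and the log2 change of the share, 0.12 ± 0.07 (SE), did not pass (adjusted p = 0.185). As a level after TMM scaling it changed by 0.19 ± 0.07 log2 (adjusted p = 0.0385), and with library totals by −0.20 ± 0.07 (adjusted p = 0.0319), so the direction of its level turned with the scaling. The call under TMM was also lost in 5 of the 8 fits that leave out 1 library (control 2, 3 or 4, propranolol 3 or 4). Trbv3 (−0.11 ± 0.09 log2) and Trbv13-1 (0.09 ± 0.08 log2) did not pass as shares either (adjusted p = 0.335 and 0.392).

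**Figure D3:**
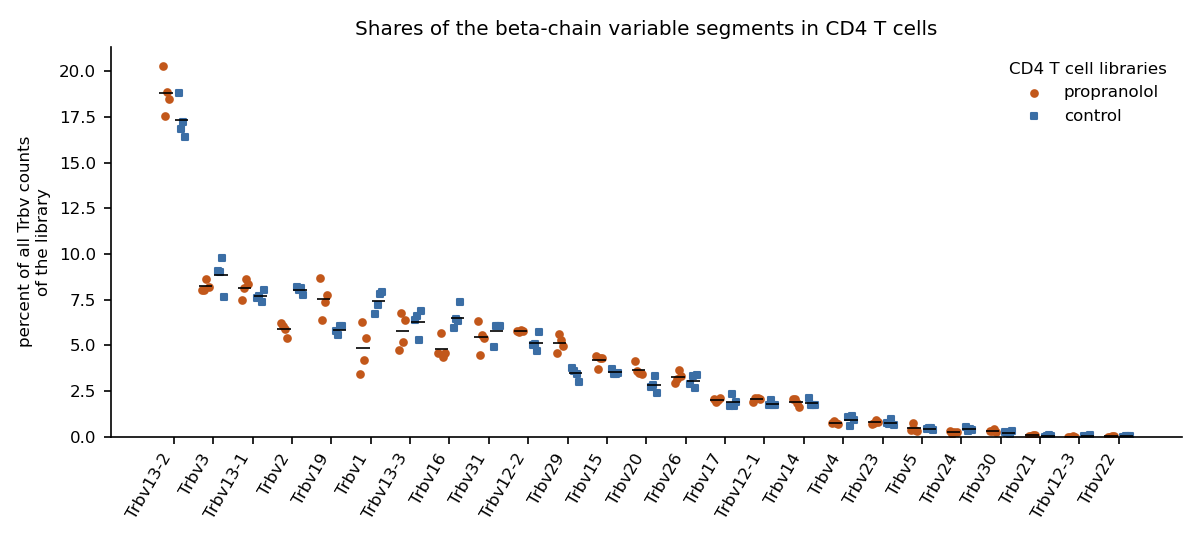
Percent of all Trbv counts taken by each of the 25 Trbv members in the 4 propranolol (circles) and 4 control (squares) CD4 T cell libraries, ordered by mean share; bars are group means. Trbv2, Trbv1 and Trbv16 lie lower and Trbv19, Trbv29 and Trbv20 higher with propranolol without overlap, and Trbv13-2 leads in both groups.

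Among the Trav shares, Trav16 took 3.94%, 2.86%, 2.22% and 3.77% of all Trav counts with propranolol, against 1.83%, 2.18%, 1.21% and 1.55% in control. The log2 change was 0.93 ± 0.25 (SE, adjusted p = 0.00722). The groups did not overlap, but the lowest propranolol library and the highest control were close. Its d copy Trav16d-dv11 took 1.03 ± 0.344% with propranolol and 0.410 ± 0.212% in control (SD, n = 4 each), with overlap (1.30 ± 0.43 log2, adjusted p = 0.0226, edgeR). The n copy Trav16n took 3.33 ± 0.470% and 2.57 ± 0.445% and did not pass (0.38 ± 0.19 log2, adjusted p = 0.107). Summed over these 3 copies, the Trav16 subgroup took 7.56 ± 1.09% of the Trav counts with propranolol and 4.67 ± 0.112% in control, without overlap. The last 150 bases of the 3 transcripts are shown, with the 4 positions at which they differ in capitals (GENCODE M21, 5′ to 3′), since reads from this end can be told apart at those bases only.
Trav16: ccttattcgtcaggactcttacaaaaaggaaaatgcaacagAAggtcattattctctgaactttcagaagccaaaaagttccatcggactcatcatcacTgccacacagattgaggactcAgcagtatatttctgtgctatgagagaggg
Trav16d-dv11: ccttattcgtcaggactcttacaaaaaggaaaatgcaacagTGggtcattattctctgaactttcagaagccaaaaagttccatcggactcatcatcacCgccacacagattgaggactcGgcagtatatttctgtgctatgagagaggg
Trav16n: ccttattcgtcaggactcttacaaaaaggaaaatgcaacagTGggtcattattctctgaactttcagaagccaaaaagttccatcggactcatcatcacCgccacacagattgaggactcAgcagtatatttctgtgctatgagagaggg

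Because Trav16d-dv11 and Trav16n share most of their sequence with Trav16, counts of the single copies are uncertain and the subgroup sum is the firmer value. The remaining called Trav were named after their values were seen and rest on few counts. Trav6-5 took 1.55 ± 0.462% with propranolol and 0.891 ± 0.103% in control (SD, n = 4 each). Trav10n had 38, 41, 43 and 36 counts with propranolol, against 0, 16, 8 and 15 in control, and the count of 0 in control library 1 allows a share of up to 0.141%. It could pass the filter on low counts only through the propranolol libraries, so its direction is no independent result. Lower shares were seen for Trav9n-4 (0.366 ± 0.128% with propranolol and 0.860 ± 0.327% in control) and Trav7d-2 (0.463 ± 0.241% and 1.01 ± 0.151%). By subgroup, Trav9 as a whole took 7.74 ± 0.857% with propranolol and 9.92 ± 0.426% in control, and Trav6 took 11.3 ± 0.801% and 9.23 ± 0.774%, both without overlap.

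Despite these shifts, the diversity of segment use was close in the 2 groups. The effective number of segments, the number of equally used segments that would give the same Shannon entropy, was 53.3, 52.7, 52.0 and 52.1 for Trav with propranolol, against 53.2, 53.9, 54.1 and 51.9 in control. The means were 52.5 ± 0.601 and 53.3 ± 0.990 (SD, n = 4 each), a difference of −0.79 within the spread of the libraries. For Trbv it was 15.2, 15.99, 15.7 and 15.6 with propranolol, against 15.5, 15.7, 15.7 and 15.7 in control. The means were 15.6 ± 0.326 and 15.6 ± 0.103. The 5 most used segments of a library took 21.2 ± 0.140% of the Trav counts with propranolol and 20.99 ± 0.746% in control, and 49.0 ± 1.67% and 49.3 ± 1.25% of the Trbv counts. Between 76 and 78 of the 79 Trav members had a count in each propranolol library, against 71 to 77 in control. Thinned to the smallest chain total, 2128 counts for Trav and 5579 for Trbv, the effective numbers were 51.9 ± 0.575 and 52.9 ± 0.998 for Trav, and 15.6 ± 0.328 and 15.6 ± 0.0951 for Trbv.

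**Figure D4:**
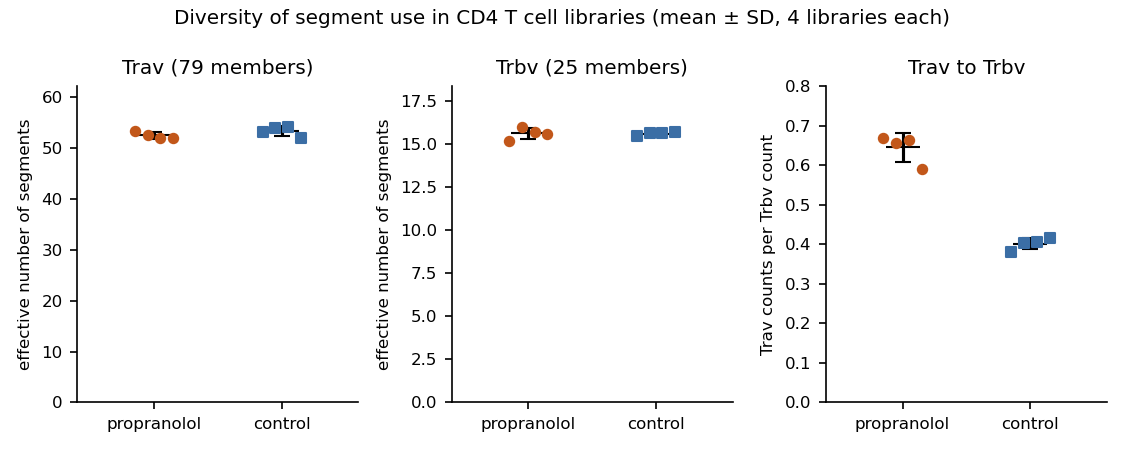
Effective number of Trav segments (left) and Trbv segments (middle), and Trav counts per Trbv count (right), in each CD4 T cell library; bars are means and whiskers SD. The effective numbers of the groups overlap for both chains, whereas the propranolol libraries hold 0.591 to 0.668 Trav counts per Trbv count and the controls 0.381 to 0.415.

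How alike 2 libraries were can be given as the share of counts that would have to move to another segment. For Trbv this was a median of 9.69% (6.31% to 12.3%) over the 16 pairs of a propranolol library and a control. Within the propranolol group it was 5.50% (3.15% to 8.77%) over 6 pairs, and within control 4.43% (3.93% to 6.43%). For Trav the pairs between groups differed by a median of 16.1%, those within propranolol by 11.4% and those within control by 14.9%. Within groups, the chi-square per degree of freedom was lowest at 1.79 for Trbv (propranolol libraries 3 and 4) and at 3.27 for Trav. It is about 1 for repeated draws of independent counts. In the CD4 T cell libraries 72.9% of all counts from 1 to 10 were even, so fragments may have been counted as 2 reads and the value for repeated draws may lie nearer to 2. Against that, the Trbv of propranolol libraries 3 and 4 are not shown to differ beyond counting error, while their Trav stood at 3.63. No pair was counted as 1 library.

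The joining segments, which are counted as genes of their own, did not follow the variable segments. Background for this is that RNA not yet spliced still carries the joining segments that lie between the joined one and the constant gene. Traj counts per 100 Trac counts were 5.82, 4.41, 5.91 and 5.50 with propranolol, against 15.03, 14.5, 14.8 and 14.5 in control. Trbj counts per 100 counts of Trbc1 and Trbc2 were 13.6 on average with propranolol and 20.7 in control, again without overlap. Of 51 Traj tested, 4 were higher and 16 lower with propranolol, and of 14 Trbj 0 were higher and 7 lower, against 30.1% higher and 29.9% lower among all genes tested. The share of Traj called lower is thus near that of all genes. The log2 change went with the place along the locus. Among those farther from Trac (Traj58 to Traj28, 25 tested) the median log2 change was 0.24, with 4 higher and 2 lower, and among those nearer (Traj27 to Traj1, 26 tested) it was −0.83, with 0 higher and 14 lower. Across the 51 segments, Spearman's rho of log2 change and order was −0.74, a description over genes that share the libraries.

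Traj29 fell by 4.07 ± 0.71 log2 (SE, adjusted p = 0.000407), at 0.118, 0, 0 and 0.0575 CPM with propranolol, against 1.30, 1.22, 0.899 and 1.14 in control, and Traj8 stood at 0.0706, 0, 0.178 and 0.0287 CPM against 0.794, 1.54, 1.32 and 1.36; both were picked after their values were seen. Each 0 allows up to 0.108 CPM in propranolol library 2 and up to 0.0892 CPM in propranolol library 3. Both segments could pass the filter on low counts only through the control libraries, so their direction is no independent result. For the Trav, order along the locus went less with the change (rho 0.18 over 68 segments). There were 9 calls, all higher, among the 34 farthest from the joining segments and 22, all higher, among the 34 nearest. Of all genes tested, 30.1% were called higher. The median log2 changes of these Trav were close, at 0.60 among the farthest and 0.73 among the nearest. Trav counts per 100 Trac counts were 19.1 on average with propranolol and 23.9 in control, without overlap, so Trac rose more than the Trav sum.

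**Figure D5:**
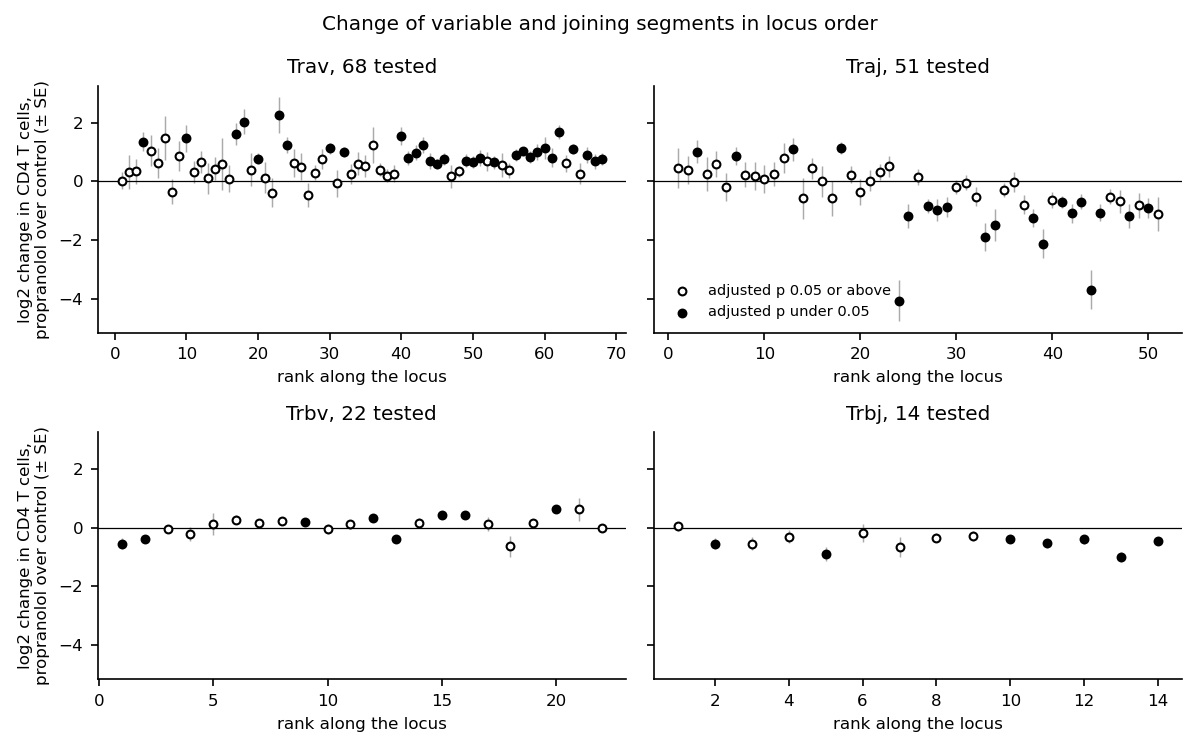
Log2 change (propranolol over control, TMM scaling, ± SE) in CD4 T cells of each tested segment, placed by its rank along its locus; filled points passed an adjusted p of 0.05. Trav points lie mostly above 0 along the whole locus, Traj points fall towards the end nearer to Trac, Trbv points lie around 0 (median 0.15) and Trbj points mostly below it (median −0.43).

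The constant genes and the CD3 chains, which carry the receptor's signal, complete the complex. Trac stood at 923, 854, 814 and 826 CPM with propranolol, against 517, 526, 534 and 529 CPM in control, a log2 change of 1.08 ± 0.06 (SE, TMM scaling, adjusted p = 1.8e-08). Trbc1 changed by 0.15 ± 0.05 and Trbc2 by 0.17 ± 0.06 log2 (adjusted p = 0.0217 and 0.0219) after TMM scaling, and by −0.24 and −0.22 with library totals, so their direction turned with the scaling. Of the CD3 chains, Cd3e (0.36 ± 0.08 log2) and Cd247 (0.28 ± 0.05 log2) passed and Cd3d and Cd3g did not. With library totals Cd3e, Cd247 and Cd3g also turned (−0.02, −0.10 and −0.25 log2). Of 20 genes of receptor signalling, 15 were higher and 3 lower (Prkcq, Vav1 and Themis), with a median log2 change of 0.52. Cblb, an E3 ligase that restrains receptor signalling, changed by 3.14 ± 0.08 log2, and the co-stimulatory receptor Cd28 by 1.64 ± 0.06 (SE, adjusted p = 6.92e-11 and 6.73e-10). Of 11 γδ segments and constants tested, 3 were higher and 0 lower, where 30.1% of all genes were higher. The recombinase gene Rag1 had 25, 30, 27 and 14 counts with propranolol and 4, 12, 10 and 16 in control. Its log2 change of 1.40 ± 0.47 (adjusted p = 0.0233) lost the call with library totals and without 5 of the 8 libraries (control 1, 2 and 3 and propranolol 2 and 3). Dntt fell by 0.69 ± 0.18 log2 with propranolol (adjusted p = 0.00656), at 2.63 ± 0.358 CPM with propranolol and 5.53 ± 0.727 CPM in control.

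Whole lung held far fewer receptor counts, 50 to 106 Trav and 158 to 327 Trbv counts per library with propranolol and 35 to 42 Trav and 44 to 134 Trbv counts in control. The Trav members summed to 1.65, 2.29, 2.44, 2.34 and 1.81 CPM with propranolol, against 0.910, 1.05, 0.941, 0.861 and 0.955 CPM in control. The Trbv members summed to 5.87, 7.49, 7.53, 5.83 and 4.03 CPM with propranolol, against 1.35, 1.32, 3.502, 2.12 and 2.14 CPM in control. Every propranolol library lay above every control in both chains, and the ratios of the means were 2.23 for Trav and 2.95 for Trbv. Cd3e moved along, at 11.5 ± 2.52 CPM with propranolol and 3.39 ± 1.17 CPM in control (SD, n = 5 each), a log2 change of 1.58 ± 0.23 (adjusted p = 0.000229). All 8 T cell markers were higher in every propranolol lung than in any control lung, and so were all 5 B cell, all 4 NK cell, all 3 neutrophil, 4 of 5 monocyte and macrophage, both alveolar epithelial and both endothelial markers. The 4 melanocyte markers were lower in every one, and their sum ran from 773 to 7334 CPM with propranolol and from 11446 to 17269 CPM in control. The rise did not hold for all lists. Cd4 overlapped (8.02 to 12.5 CPM with propranolol, 4.32 to 8.52 CPM in control), as did Scgb1a1. The fibroblast markers summed to 463 to 666 and 596 to 1905 CPM, with overlap. Only 1 of 2 CD8 T cell, 3 of 4 regulatory T cell and 3 of 4 plasma cell markers lay above every control. Per 100 Cd3e counts there were 54.0 Trbv counts on average with propranolol and 60.4 in control, with overlap. Trav counts per 100 Cd3e counts were 18.6 ± 2.45 with propranolol and 30.6 ± 11.2 in control (SD, n = 5 each), also with overlap (ratio 0.608).

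In lung, 70.8% of 18639 genes tested passed, 35.5% higher and 35.3% lower with propranolol. Only 7 members, all Trbv, passed the filter on low counts, and of these 4 were higher and 0 lower. A gene passes this filter if enough libraries to fill 1 group reach the minimum count. Trbv16, Trbv13-3 and Trbv12-2 had under 10 counts in every control library, so they entered through the propranolol libraries. Trbv13-2 had 6, 6 and 8 counts in control libraries 1, 2 and 4, so it could not have passed through the controls either. The direction of these 4 is therefore no independent result. Without the filter 85 members were tested, with 7 higher and 2 lower. Trbv16 had 21, 8, 17, 31 and 16 counts with propranolol, against 4, 7, 4, 3 and 7 in control (1.78 ± 0.40 log2, adjusted p = 0.00234). Trbv13-3 had 13, 18, 20, 15 and 11 counts with propranolol, against 8, 4, 7, 2 and 7 in control (1.38 ± 0.39 log2, adjusted p = 0.00805). In both the groups did not overlap. Trbv12-2 had 8, 18, 25, 15 and 13 counts with propranolol, against 7, 0, 7, 3 and 9 in control (1.52 ± 0.52 log2, adjusted p = 0.022); the 0 in control library 2 allows up to 0.0903 CPM. Trbv13-2 had 18, 25, 50, 32 and 25 counts with propranolol, against 6, 6, 25, 8 and 19 in control (1.14 ± 0.41 log2, adjusted p = 0.0254). Trbv12-2 and Trbv13-2 lost the call in 3 and 4 of the 10 fits that leave out 1 library. The count of higher calls was 2 without propranolol library 3 and 7 without control library 3, with 1 lower call without either of them or without propranolol library 1. With every count halved and rounded up, tried after seeing that most small counts were even (59.9% of lung counts from 1 to 10), 1 member, Trbv13-2, was left to test and it was called higher. Its direction is no independent result there either.

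Within the Trav of whole lung, 1 segment took a large share of the control counts. Trav4-4-dv10 had 7, 1, 6, 1 and 2 counts with propranolol, against 11, 13, 2, 13 and 18 in control. This was 4.99 ± 5.36% of the Trav counts with propranolol and 29.7 ± 14.3% in control (SD, n = 5 each), while in CD4 T cells it took 6.14 ± 0.565% and 5.12 ± 0.534% (SD, n = 4 each). It did not pass the filter on low counts in lung and was not tested there. Control library 3 was the exception among controls, at 5.56%. Thinned to 35 Trav counts per library, the effective number of Trav segments was 13.0, 17.5, 16.6, 16.5 and 17.5 with propranolol, against 7.53, 7.75, 11.4, 10.2 and 6.68 in control. The groups did not overlap, and CD4 T cells thinned to the same depth stood at 22.1 ± 0.124 with propranolol and 22.4 ± 0.228 in control. For Trbv, thinned to 44 counts, lung had 12.9 ± 0.691 with propranolol and 10.96 ± 1.32 in control, with overlap.

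The libraries labelled monocytes held receptor segments as well, at levels that differed more between libraries than between groups. Trbv summed to 84.0, 76.7, 25.6 and 15.2 CPM with propranolol, against 6.52, 16.01, 36.3 and 41.8 CPM in control. Trav summed to 14.7, 13.9, 3.77 and 3.96 CPM with propranolol, against 1.43, 3.12, 5.45 and 6.33 CPM in control. The groups overlapped in both chains. In this material 30.5% of 18236 genes passed, 14.3% higher and 16.1% lower with propranolol. Of 22 members tested, 3 Trav and 19 Trbv, 0 were called in edgeR and 0 in DESeq2, and at an unadjusted p under 0.05 the counts were 0 and 1. All 22 log2 changes were positive, with a median of 0.97. Trbv13-2 again took the largest share of Trbv, 13.8 ± 0.466% with propranolol and 14.9 ± 1.40% in control (SD, n = 4 each). It led in 7 of the 8 libraries, and in control library 1 it was level with Trbv15 at 32 counts each. These libraries also held Sftpc of alveolar epithelium (on average 2144 CPM with propranolol and 2299.6 CPM in control) and Scgb1a1 of club cells, so they are called by their label only.

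The receptor counts of these libraries went with genes of thymic T cells. Rag1 stood at 427, 366, 86.6 and 52.0 CPM with propranolol, against 28.8, 84.9, 202 and 249 CPM in control, the same order of libraries as for Trbv in each group. Dntt stood at 225, 171, 40.8 and 25.7 CPM with propranolol, against 13.6, 35.4, 91.1 and 117 CPM in control. In CD4 T cells Rag1 averaged 0.719 CPM with propranolol and 0.347 CPM in control. The 4 thymocyte markers (Rag1, Rag2, Dntt and Ptcra, the partner of the β chain before the α chain is made) all had counts and summed to 78.98 to 668 CPM with propranolol and 43.4 to 374 CPM in control, with overlap. Cd8a stood at 0.889 to 1.30 times Cd4 with propranolol and 0.654 to 1.47 times in control, against 0.0192 to 0.0406 and 0.00569 to 0.00861 in the CD4 T cell libraries.

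The make-up of the receptor counts also stood apart. There were 0.147 to 0.260 Trav counts per Trbv count with propranolol and 0.150 to 0.219 in control, below every CD4 T cell library. Trac stood at 0.224 to 0.330 counts per Trbc count with propranolol and 0.195 to 0.321 in control, also below every CD4 T cell library. The 26 Trav members nearest to the joining segments (Trav9-2 to Trav23) took 51.6% to 59.1% of the Trav counts with propranolol and 52.6% to 65.9% in control. In CD4 T cells the same segments took 46.0% to 48.3% and 43.1% to 47.8%. In whole lung, where few Trav were counted, they took 29.4% to 60.4% with propranolol and 61.0% to 88.1% in control. A high share of these segments is thus not particular to the libraries labelled monocytes. Trav21-dv12, the most used Trav in 3 of the 8 libraries labelled monocytes, took 4.94 ± 1.25% with propranolol and 8.51 ± 3.96% in control there, and 2.38 ± 0.157% and 2.38 ± 0.467% in CD4 T cells. CD4 T cells and the libraries labelled monocytes were isolated in different ways and their counts come from separate tables. These differences between them were not tested. In whole lung, Rag1 stood at 0.264, 0.202, 1.151, 0.856 and 0.408 CPM with propranolol, against 0.468, 0.120, 10.4, 3.55 and 0.955 CPM in control. The control library with the most Rag1 was also the one with the most Trbv, and its part in the lung results is given by the counts without it.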

How the data were processed

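Polyadenylated RNA of 26 libraries was sequenced. The authors deposited raw counts per gene in 2 tables, 1 for CD4 T cells and 1 for whole lung and monocytes, each of 55416 genes; the submitters' processing notes name STAR 2.7.9, featureCounts of Subread 2.0.3 and GRCm39. How reads matching several genes and strand were handled is not given in these sources. Symbols were matched to 52083 gene IDs (94.0%). Columns of no sample numbered 0.

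Groups were taken from the treatment label. Each material was fitted on its own over all genes with filterByExpr (minimum count 10), TMM scaling and the quasi-likelihood test of edgeR 4.0.16 (R 4.3.3, limma 3.58.1), with Benjamini-Hochberg adjustment at 0.05. For shares, each segment was tested in the same fit with the log total of its chain as offset. DESeq2 1.42.0, other scalings, no filter, a replicate block and leaving out each library were alternatives. The code was tested on simulated counts. Effective numbers, sums and ratios carry no test. Values after ± are SDs over libraries or SEs from the fits. Limits for counts of 0 (3 counts) cover counting error only and take counts as independent. They would be wider if fragments were counted more than once.

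Named genes were the 6 Trav and 6 Trbv with the highest mean CPM, up to 3 called genes per direction and comparison, invariant T cell segments, constant, CD3 and recombination genes, and the segments next to the total of 10. The members and lists were chosen with earlier results of these data known. Sequences and the order of segments come from GENCODE M21 (GRCm38), a build other than that of the counts, so no coordinates are given. Promoters of these segments were not analysed here.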

Additional observations from a re-analysis of the deposited data

Results flagged for a closer look

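In 6 of 64 groups of CD4 T cell libraries that were screened, 1 library stood far from the others of its group, where chance gives about 1 in 20. Propranolol library 4 had the lowest Trav to Trbv count ratio of its group, 0.591, still above every control. Control library 1 had the lowest effective number of Trbv segments of its group, 15.5. Propranolol library 3 had the lowest share of Trav1 in its group, 0.582%. The same library had 0.0117% for the pseudogene Trbv12-3, which is 1 count. Propranolol library 2 had the highest share of Trbv16 in its group, 5.68%, below every control. Control library 1 had a share of 0 for the pseudogene Trbv22, which allows up to 0.0538%.

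In CPM by library totals, the Trbv sum was lower with propranolol in every CD4 T cell library than in any control and higher in every whole lung library, and the difference between the materials was not tested. The ratios of propranolol over control were 0.805 in CD4 T cells and 2.95 in whole lung. The same held for Trbv1 (0.529 and 3.16), Trbv16 (0.595 and 3.87) and Trbv2 (0.590 and 3.68).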

How the results depend on the processing

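With library totals in place of TMM (chosen after seeing the data), the members called in CD4 T cells numbered 13 higher and 8 lower, against 36 and 3. Genes called higher that turned under it were Cd247 (−0.10 log2), Cd3e (−0.021), Trbc1 (−0.24), Trbc2 (−0.22) and Trbv13-2 (−0.20), and Cd3g, not called under TMM, was called lower (−0.25). Without the filter on low counts, 3 shares were lower (against 5), lung had 7 members higher and 2 lower (against 4 and 0), and the libraries labelled monocytes had 3 higher (against 0). The cause was not tested. With counts halved because most small counts were even, also chosen after seeing the data, lung had 1 higher, the 1 member left to test. Its direction is no independent result, as given above. By the inverse Simpson index, Trav diversity was 41.9 ± 0.773 with propranolol and 43.3 ± 1.18 in control (SD, n = 4 each), a wider gap than by entropy, and Trbv differed by −0.27 (propranolol minus control).

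Replicate numbers did not pair the libraries (same-number correlations in CD4 T cells of −0.02 to 0.04). In whole lung these correlations spread wider, from −0.05 to 0.37, and libraries of different numbers ran from −0.44 to 0.39. In the libraries labelled monocytes the same-number values were −0.31 to −0.13 and the others −0.25 to 0.32. With a replicate block 3 shares were lower, and the CD4 T cell levels gave 32 higher and 3 lower.

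Leaving out 1 library gave 28 to 39 higher and 1 to 3 lower members in CD4 T cells, and 4 to 8 higher and 3 to 5 lower shares. In lung it gave 2 to 7 higher and 0 to 1 lower. In the libraries labelled monocytes it gave 0 to 2 higher (2 without propranolol library 4, 1 without control library 4) and 0 lower. The difference in effective number ran from −1.25 to −0.51 for Trav and from −0.11 to 0.15 for Trbv. Among named genes, 432 values under other settings kept their side of the threshold, 20 lost it, 12 gained it and 6 turned. Low counts limit lung, where 7 of 104 members could be tested.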
